A study of Mus musculus with 96 samples.

Results

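The 8 genes described here encode enzymes that build sterols and fatty acids: Hmgcs1, Idi1, Fdps, Fdft1, Sqle and Msmo1 of the sterol pathway, and Fasn and Scd2 of fatty acid synthesis. They were 8 of 24054 genes in a count table of 96 single neurons from the preoptic area of the mouse hypothalamus, a centre of thermoregulation. The set was chosen by measured values of these same cells, because Msmo1 and Fasn differed between temperature classes, and the other 6 are genes of the same pathways. The class differences of Msmo1 and Fasn are therefore given as a description. All neurons came from C57BL/6N mice aged 2 to 3 months. Each cell was recorded by whole-cell patch clamp before it was harvested through a glass pipette. Smart-seq2, a method that copies whole transcripts, and Nextera XT then gave 1 library per cell. The labels name no transgene, drug or separate control animal, and the groups are defined by the labelled response to temperature.

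The labels give 21 warm-sensitive, 5 cold-sensitive and 24 insensitive neurons, and 10 silent sensitive and 18 silent insensitive neurons, and 18 further neurons are of unknown class. The study's title names genetic markers of temperature-sensitive neurons as its subject. No label names an animal, so each class counts as 1 sample, no test was possible, and the exact 95% intervals below cover counting error only. A letter from A to H in each cell's title, whose meaning the labels do not give, was treated as a possible batch.

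Cells build cholesterol from acetyl-CoA in a chain of steps. Hmgcs1 makes HMG-CoA, Idi1 and Fdps turn its mevalonate product into farnesyl diphosphate, Fdft1 joins farnesyl units into squalene, Sqle oxidises squalene, and Msmo1 removes methyl groups from the sterol ring on the way to cholesterol. Fasn builds palmitate from malonyl-CoA, and Scd2 places a double bond in long-chain fatty acids. Cholesterol barely crosses the blood-brain barrier, so the brain makes its own, and oligodendrocytes and astrocytes are large producers. Many of these genes are known targets of the transcription factors SREBF1 and SREBF2, which bind sterol regulatory elements when sterols run low.

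The upstream sequences of Fasn and Hmgcs1 are shown because Fasn was highest in warm-sensitive cells and Hmgcs1 in insensitive cells, and because of these genes only Hmgcs1 and Fasn had a matched window without an annotated exon. RefSeq promoter sequences (GRCm38.p6, a patch release of the build called mm10) matched 4 of the 8 genes: Msmo1, Fasn, Idi1 and Hmgcs1. Each sequence runs 5′ to 3′ on the gene's own strand, over the 250 bases before the RefSeq start. Capitals mark CCAAT, or ATTGG where it lies on the other strand, and in Hmgcs1 also the sterol regulatory element TCACNCCAC. The Fasn stretch is chr11:120824548-120824797 on the minus strand, and the Hmgcs1 stretch is chr13:119690101-119690350 on the plus strand.
Fasn: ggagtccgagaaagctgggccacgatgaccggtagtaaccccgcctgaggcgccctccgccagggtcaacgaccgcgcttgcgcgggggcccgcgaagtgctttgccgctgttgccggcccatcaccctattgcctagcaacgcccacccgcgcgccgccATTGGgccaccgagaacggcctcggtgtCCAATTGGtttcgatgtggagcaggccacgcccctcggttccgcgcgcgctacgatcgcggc
Hmgcs1: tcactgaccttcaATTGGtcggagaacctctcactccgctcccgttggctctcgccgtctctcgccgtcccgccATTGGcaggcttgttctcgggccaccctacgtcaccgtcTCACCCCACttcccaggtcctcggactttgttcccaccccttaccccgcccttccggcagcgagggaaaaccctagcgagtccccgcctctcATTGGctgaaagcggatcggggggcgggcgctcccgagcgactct
Both strands were searched for 4 motifs. TCACNCCAC was found in 1.05% of 32851 RefSeq windows of this length and, among the 4 genes, in Hmgcs1, at positions -137 to -129 from the start. CCAAT was found in 33.9% of windows and in all 4 genes, with 3 matches each in Msmo1, Fasn and Hmgcs1 and 2 in Idi1; in Fasn the matches that begin at -62 and -59 overlap on opposite strands. GGGCGG, the GC box, was found in 32.7% of windows and in Msmo1, Idi1 and Hmgcs1. CACGTG, the E-box, was found in 6.02% of windows and in none of the 4 stretches. A match describes letters and is not evidence of binding.

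Depth varied between classes. Total counts per cell ran from 465167 to 3660726, and 53.2% of all counts fell on Rn45s, the ribosomal RNA precursor. Levels are therefore counts per 1000000 counts outside Rn45s (CPM). Median counts outside Rn45s were 761928 in insensitive, 734507 in cold-sensitive, 415420 in silent sensitive, 362457 in silent insensitive and 314892 in warm-sensitive cells. Above 75% of counts in Rn45s stood 15 cells, of which 8 were warm-sensitive, 4 silent insensitive, 2 silent sensitive and 1 of unknown class. Of 12 microglia genes, all 12 reached 10 CPM in at least 1 insensitive cell and 11 in at least 1 cold-sensitive cell. Reaching that level in 1 cell is therefore no check of the labelled cell type. All 12 neuron marker genes examined reached 10 CPM in at least 1 cell of every class. Their summed level was unequal, with medians of 10024 CPM in insensitive, 8259 in cold-sensitive, 7786 in silent insensitive, 6607 in warm-sensitive and 5966 in silent sensitive cells, and their median difference was -1.37 in warm-sensitive minus insensitive cells, where the median of all genes was -1.28.

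A gene is called detected in a cell at 10 CPM or more. Scd2 was the most widely detected of the 8 genes, in 57 of 96 cells (59.4%, exact 95% interval 48.9 to 69.3%). Hmgcs1 followed in 47 cells (49.0%), Fdft1 in 43 (44.8%), Msmo1 in 39 (40.6%), Fasn in 37 (38.5%), Fdps in 26 (27.1%) and Sqle in 23 (23.96%). Idi1 was detected in 6 cells (6.25%, 2.33 to 13.1%). Summed over all cells and divided by merged exon length, the levels were 49.3 CPM per kb for Scd2, 42.6 for Msmo1, 42.1 for Hmgcs1, 39.2 for Fdft1, 11.3 for Sqle, 10.8 for Fasn, 10.3 for Fdps and 0.374 for Idi1. Idi1 was thus the lowest of the 8 per length, and Fdps, the next enzyme of the chain, stood above it.

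Single neurons carried these transcripts unevenly, with Msmo1 as the clearest case. It was at 0 in 25 cells, and 32 cells had 1 to 5 counts, with a median of 1, that stayed below 10 CPM. Only 7 cells lay from 10 to 100 CPM, and 32 lay at 100 CPM or more. Scd2 lay at 100 CPM or more in 47 cells and from 10 to 100 CPM in 10. Among the cells that passed 10 CPM the median was 414 CPM for Scd2, 342 for Msmo1, 216 for Fdft1, 176 for Sqle, 160 for Fasn, 141 for Hmgcs1, 115 for Fdps and 21.4 for Idi1.

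**Figure D1:**
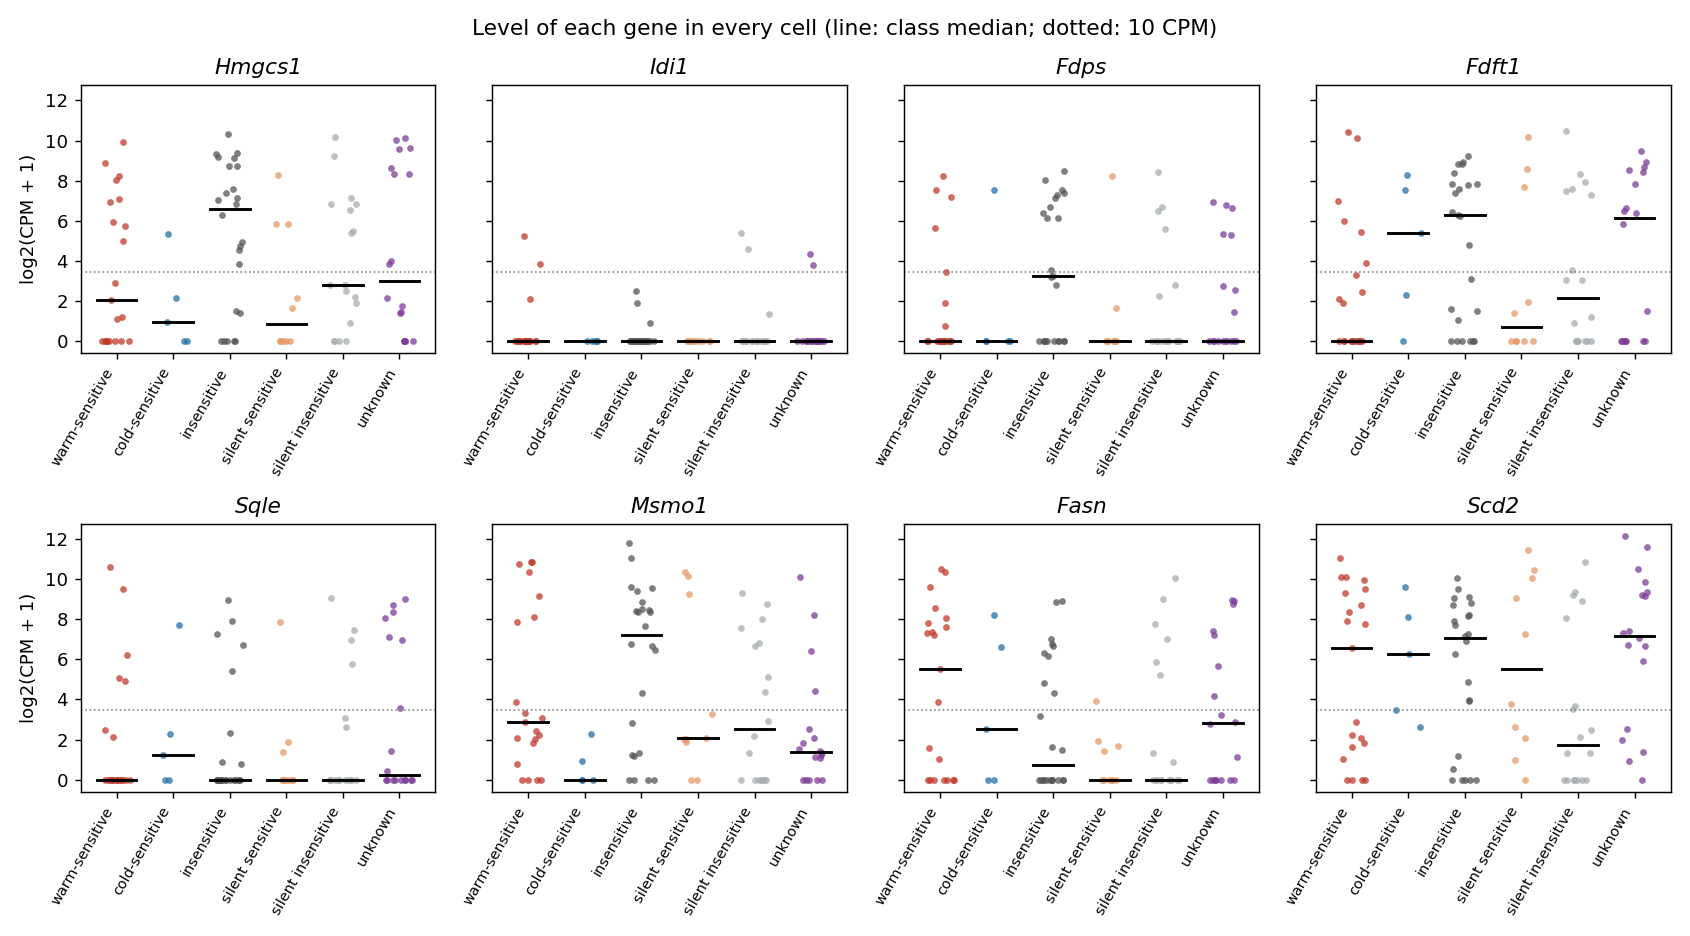
Level of each of the 8 genes in every cell, as log2(CPM + 1) on the y axis, by temperature class on the x axis. Each point is 1 cell, the black line is the class median and the dotted line marks 10 CPM; Msmo1 lies below that line in all 5 cold-sensitive cells and above it in 16 of 24 insensitive cells.

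Most cells had some of the 8 transcripts at the detection limit. A transcript below that limit is not shown to be absent from the cell. No cell had all 8 genes at 10 CPM, 4 cells had 7, 32 cells had 3 and 4 cells had 0. The median number was 4 in insensitive cells, 3 in warm-sensitive, cold-sensitive and unknown cells, and 2 in silent sensitive and silent insensitive cells. With each cell thinned to 200000 counts outside Rn45s, which 91 cells reach, the median was again 4 for the insensitive class, 3 for the warm-sensitive and cold-sensitive classes and 2 for the silent sensitive class. It was 3 in the 14 silent insensitive cells that reach this depth. The number of the 8 genes detected and the number of all genes with a count had a Spearman rho of 0.48 over 96 cells, which differ in depth and library quality.

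Hmgcs1 (chr13:119690379-119708260, plus strand; positions here and below are mm10, GENCODE M21) was most often detected in insensitive cells. Its CPM there ran from 0 to 1273 with a median of 95.7, and 17 of 24 cells (70.8%, 48.9 to 87.4%) had it. In warm-sensitive cells the median was 3.12 and the highest value 976, with 9 of 21 cells detected (42.9%, 21.8 to 66.0%). The 5 cold-sensitive cells stood at 0, 0.933, 39.3, 0 and 3.38 CPM, so that 1 of 5 had it. Silent insensitive cells had a median of 5.91 with 8 of 18 detected, and silent sensitive cells had 1.08 with 3 of 10. The ranges overlap in all classes, and the highest cold-sensitive cell lay below the insensitive median.

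Idi1 (chr13:8885501-8892451, plus strand), the isomerase that supplies dimethylallyl diphosphate, was at 0 in all 5 cold-sensitive and all 10 silent sensitive cells. Those counts of 0 allow a share of detected cells of up to 52.2% and 30.9%. The highest insensitive cell had 4.59 CPM, the highest warm-sensitive cell 37.0 and the highest silent insensitive cell 41.5. Every class had a median of 0.

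Fdps (chr3:89093588-89101959, minus strand), the farnesyl diphosphate synthase, had a median above 0 in insensitive cells alone, at 8.34 CPM, with a highest value of 361. It was detected in 11 of 24 insensitive cells (45.8%, 25.6 to 67.2%), 4 of 21 warm-sensitive cells (19.05%, 5.45 to 41.9%), 4 of 18 silent insensitive cells (22.2%) and 1 of 10 silent sensitive cells. The cold-sensitive cells stood at 0, 0, 0, 0 and 181 CPM. One cell therefore held every Fdps count of the cold-sensitive class.

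Fdft1 (chr14:63145150-63179578, minus strand), the squalene synthase, was detected in 14 of 24 insensitive cells (58.3%, 36.6 to 77.9%), where its median was 76.1 CPM and its highest value 606. In warm-sensitive cells the median was 0 and the highest value 1361.5, with 6 of 21 cells detected (28.6%, 11.3 to 52.2%). The cold-sensitive cells had 184, 0, 315, 3.83 and 40.6 CPM. Summed over the class, Fdft1 was nonetheless at 177 CPM in warm-sensitive and 148 CPM in insensitive cells. Warm-sensitive cell 1 held 74.0% of the warm-sensitive counts, and without it the sum was 51.0 CPM. The exons of Fdft1 share 774 bases with Ctsb on the opposite strand, and without a stated strand those reads cannot be told apart. Ctsb, a lysosomal protease, was detected without Fdft1 in 46 cells and the levels of the pair had a rho of 0.09 over 96 cells.

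Sqle (chr15:59315077-59331192, plus strand), the squalene epoxidase, was detected in 5 of 21 warm-sensitive (23.8%), 5 of 24 insensitive (20.8%), 4 of 18 silent insensitive (22.2%) and 1 of 10 silent sensitive cells. The cold-sensitive cells stood at 1.36, 0, 211, 3.83 and 0 CPM. Its highest value, 1539 CPM, was in a warm-sensitive cell, and the class medians were 0 except for 1.36 in cold-sensitive cells and 0.183 in unknown cells. The intervals of these shares overlap and run, for example, from 8.22 to 47.2% in warm-sensitive cells and from 7.13 to 42.2% in insensitive cells. In 1 random thinning to equal depth, 42.9% of the 14 silent insensitive cells that reach it had Sqle at 2 counts or more (17.7 to 71.1%). Of the silent sensitive cells 10% did (0.253 to 44.5%), so that these intervals overlap too.

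Msmo1 (chr8:64718139-64733792, minus strand), the methylsterol monooxygenase, was detected in 16 of 24 insensitive cells (66.7%, 44.7 to 84.4%), with a median of 157 CPM and a highest value of 3614. In the 5 cold-sensitive cells it stood at 0, 0.933, 0, 3.83 and 0 CPM, a total of 2 counts. No cold-sensitive cell passed 10 CPM, which in 5 cells allows a share of up to 52.2%, and 4 of the 24 insensitive cells were at 0 too, so that the 2 ranges overlap. Warm-sensitive cells had a median of 6.37 and a highest value of 1875 CPM, with 8 of 21 detected (38.1%, 18.1 to 61.6%). The warm-sensitive cells that passed 10 CPM had a median of 939.96, against 345 in the insensitive cells that did. The share was lower in warm-sensitive cells, within overlapping intervals, and the level among detected cells was higher. Among the 8 detected warm-sensitive cells is cell 16, at 13.6 CPM with only 73702 counts outside Rn45s. At 5 counts or more, 7 of 21 warm-sensitive and 17 of 24 insensitive cells had Msmo1. The summed level was 455 CPM (441 to 468) in warm-sensitive and 370 CPM (362 to 379) in insensitive cells. In silent insensitive cells the median was 5.03 and 8 of 18 had it (44.4%), and in silent sensitive cells the median was 3.16 and 3 of 10 had it (30%), at 608 to 1327 CPM.

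Fasn (chr11:120805846-120824547, minus strand) was the gene of the 8 with its highest mean level in warm-sensitive cells. There its CPM ran from 0 to 1443.5 with a median of 45.4, and 12 of 21 cells had it (57.1%, 34.0 to 78.2%). Insensitive cells had a median of 0.891 and a highest value of 478, with 9 of 24 detected (37.5%, 18.8 to 59.4%). The cold-sensitive cells stood at 297, 0, 4.67, 0 and 96.4 CPM. In silent sensitive cells only 1 of 10 passed 10 CPM, at 14.2, while 6 of 18 silent insensitive cells did (33.3%), reaching 1070.3. The summed level was 336 CPM (325 to 348) in warm-sensitive, 61.0 (57.7 to 64.5) in insensitive and 2.23 (1.11 to 3.99) in silent sensitive cells. Insensitive cell 1 held 39.0% of the insensitive counts, and without it that sum was 39.2 CPM. Silent sensitive cell 4 held 72.7% of the counts of its class, and without it the sum was 0.686 CPM.

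Scd2 (chr19:44293674-44306864, plus strand), the stearoyl-CoA desaturase, had no zero in the cold-sensitive class, whose cells stood at 275, 77.5, 9.997, 785 and 5.07 CPM. It was detected in 17 of 24 insensitive (70.8%, 48.9 to 87.4%), 11 of 21 warm-sensitive (52.4%, 29.8 to 74.3%), 6 of 10 silent sensitive (60%, 26.2 to 87.8%) and 7 of 18 silent insensitive cells (38.9%, 17.3 to 64.3%). The medians were 132 CPM in insensitive, 92.9 in warm-sensitive, 84.2 in silent sensitive and 2.43 in silent insensitive cells. Scd2 is one of 4 closely related mouse genes, and reads shared with a near-identical copy could be split or lost in counting; the same caution holds for Fdps and Idi1.

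**Figure D2:**
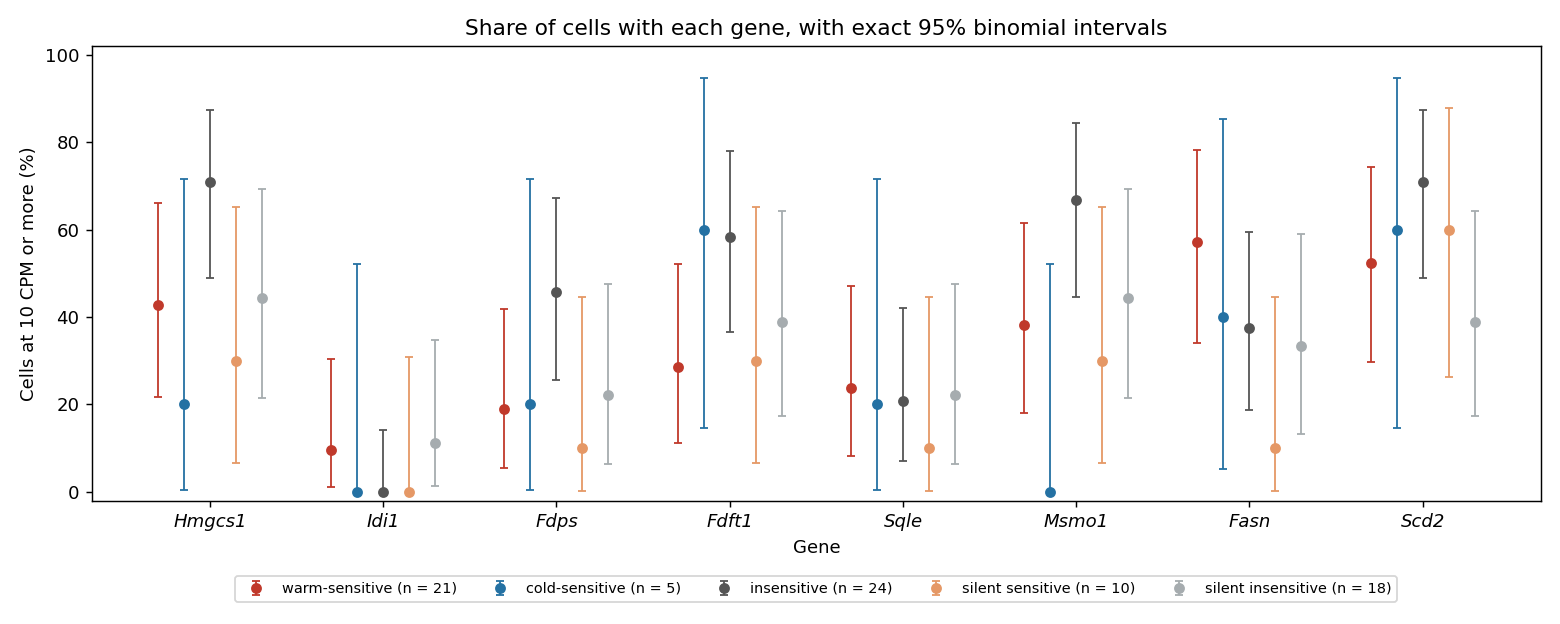
Percent of cells at 10 CPM or more (y axis) for each gene (x axis) in the 5 temperature classes, as points with exact 95% binomial intervals. Hmgcs1, Fdps, Msmo1 and Scd2 are highest in insensitive cells and Fasn in warm-sensitive cells, and the intervals of the 5 cold-sensitive cells are the widest.

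By mean log2(CPM + 1), insensitive cells ranked first for 4 of the 8 genes, namely Hmgcs1, Fdps, Fdft1 and Msmo1. They ranked first for 42.1% of the 3457 genes at 10 CPM in at least 25% of cells, and warm-sensitive cells for 3.53%. By summed level, Msmo1 was higher in warm-sensitive cells, as given above, and Fdft1 in silent sensitive cells, at 299.9 CPM, where cell 1 held 80.3% of the counts and the sum without it was 74.5. The summed level of Sqle was highest in warm-sensitive cells, at 83.1 CPM, where cell 18 held 57.6% of the counts. That of Scd2 was highest in silent sensitive cells, at 452 CPM, where cell 10 held 45.9%. By mean log2(CPM + 1), Fasn ranked first in warm-sensitive, Sqle and Scd2 in cold-sensitive and Idi1 in silent insensitive cells. None of the 32 gaps between neighbouring classes in the orders by mean log2(CPM + 1) exceeded the larger of the 2 SDs over cells. The largest such gap, for Msmo1, was 2.86, between silent insensitive cells at 3.51 ± 3.56 (SD, n = 18 cells) and cold-sensitive cells at 0.64 ± 0.999 (SD, n = 5 cells).

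Warm-sensitive neurons were compared with insensitive ones to find genes that go with warm sensitivity. The difference is the mean of log2(CPM + 1) in the first class minus that in the second, and it understates the change of genes near 0. Genes entered this comparison if at least 25% of the cells of either class, and at least 3 cells, had 10 CPM. Idi1 and Sqle fell under this limit, so 6 of the 8 genes entered. A gene can enter through 1 class alone, as Fdps did here through the insensitive cells. Fasn was higher in warm-sensitive cells by 1.84. Fdft1 differed by -2.23, Hmgcs1 by -1.86, Fdps by -1.85 and Msmo1 by -1.46, and Scd2 by -0.10. Thus 1 of the 6 was higher by at least 1 and 4 were lower by at least 1.

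Those counts stand against a background that is itself shifted. Of 5088 genes that entered, 1.71% were higher by at least 1 and 61.6% lower, and the median gene differed by -1.28. Since the genes were selected on this contrast, nothing is read from the members' share. Relative to the median gene Fasn differed by 3.12 and Scd2 by 1.17, and Hmgcs1 by -0.58, Fdps by -0.58, Fdft1 by -0.95 and Msmo1 by -0.18, so that on this centring 2 of the 6 were higher by at least 1 and 0 lower. On summed counts the direction of Msmo1 and Fdft1 turned, to 0.30 and 0.25. Msmo1 also fell short of 1 without the cells over 75% Rn45s (-0.88). Among the 13 warm-sensitive cells at or under that share of Rn45s, a subset examined after seeing the data, 8 had Fasn at 10 CPM (61.5%, 31.6 to 86.1%), 6 had Msmo1 (46.2%) and 6 had Hmgcs1. Fasn kept a difference of at least 1 in every alternative run, and stayed between 1.54 and 2.11 with any 1 cell left out. Since Fasn was selected for its class difference and every run reuses these cells, this is no independent support.

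**Figure D3:**
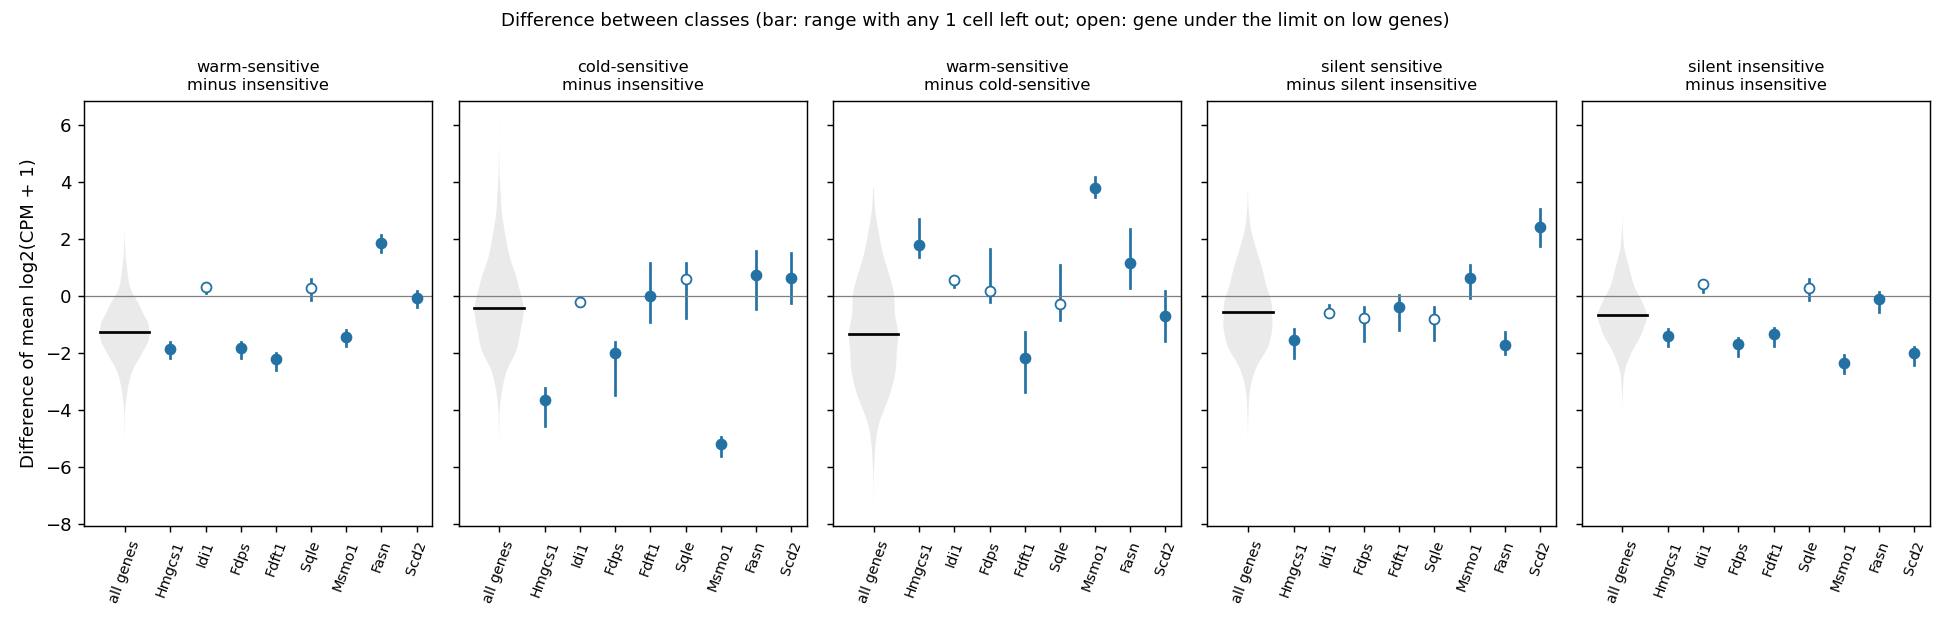
Difference of mean log2(CPM + 1) between classes (y axis) for the 8 genes in the 5 comparisons, one panel each. Bars span the values with any 1 cell left out, open points are genes under the limit on low genes, and the grey shape and its line give all genes that entered and their median, which lies below 0 in all 5 panels.

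Cold-sensitive neurons were set against the same insensitive cells. Msmo1, which was selected for its class difference, differed by -5.23, and Hmgcs1 by -3.65 and Fdps by -2.0003. Msmo1, Hmgcs1, Fdps and Fasn entered through the insensitive cells alone, since each had 10 CPM in fewer than 3 cold-sensitive cells. Fdft1 differed by -0.03, Scd2 by 0.62 and Fasn by 0.71. Among the 6 genes that entered, 0 were higher by at least 1 and 3 lower, where 17.8% of all genes were higher and 35.8% lower and the median gene differed by -0.45. The 3 lower genes passed the limit only through the class where they are high, so nothing is read from their number. Relative to that median, Scd2 at 1.08 and Fasn at 1.16 passed 1, but each rests on 1 cell: without centring, Fasn was -0.48 without cold-sensitive cell 1 and Scd2 -0.28 without cell 4, and Scd2 was -0.71 on summed counts. The value of Fdps rests on cold-sensitive cell 5, without which it was -3.50, and it was -1.18 within title letters. Msmo1 and Hmgcs1 kept a difference of at least 1 in every alternative run. Those runs reuse the same cells, and both genes entered only through the class where they are high. Their stability is therefore no independent support. The summed level of Msmo1 was 0.481 CPM (0.0582 to 1.74) in cold-sensitive cells, and 0.257 without cell 4, against 370 CPM in insensitive cells. That of Hmgcs1 was 14.9 CPM (11.4 to 19.1), against 263 in insensitive cells. Cold-sensitive cell 3 held 95.2% of those Hmgcs1 counts, and without it the sum was 1.13 CPM.

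The warm-sensitive and cold-sensitive cells were then compared directly, reusing the cells of both comparisons above. Msmo1 was higher in warm-sensitive cells by 3.77, Hmgcs1 by 1.79 and Fasn by 1.13, and Fdft1 differed by -2.20 and Scd2 by -0.73. Idi1, Fdps and Sqle did not enter. Of the 5 genes, 3 were higher by at least 1 and 1 lower, where 10.8% of 2614 genes were higher, 57.6% were lower and the median gene differed by -1.35. The 3 higher genes entered through the warm-sensitive cells alone, where they are high, so nothing is read from their number. Relative to that median, Msmo1 was 5.12, Hmgcs1 3.14, Fasn 2.48, Scd2 0.62 and Fdft1 -0.85, so that none of the 5 was lower by at least 1. Over all 8 genes, 6 were then higher by at least 1 and 0 lower. Idi1, Fdps and Sqle, which did not enter, are among the 6. Before the median of -1.35 was taken off they differed by 0.53, 0.15 and -0.30, so they passed 1 only through the centring. The share of all genes on this centring was not counted. Msmo1 was 2.68 within title letters, and Hmgcs1 was 2.70 without cold-sensitive cell 3. Fasn fell to 0.43 within letters and to 0.26 without cold-sensitive cell 2, and reached 2.32 without cell 1. Fdft1 was -3.37 without cold-sensitive cell 2 and -1.295 without cell 3, and turned to 0.22 on summed counts.

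Among the neurons labelled silent, the sensitive cells were compared with the insensitive ones, and the 2 fatty acid genes differed in opposite directions. Scd2 was higher in silent sensitive cells by 2.39, and Fasn differed by -1.73 and Hmgcs1 by -1.55. Msmo1 differed by 0.60 and Fdft1 by -0.41, and Idi1, Fdps and Sqle did not enter. Fasn entered through the silent insensitive cells alone. Of 5 genes, 1 was higher by at least 1 and 2 lower, against 13.6% and 38.8% of 3980 genes, whose median was -0.59. Relative to that median 2 were higher by at least 1, Scd2 at 2.98 and Msmo1 at 1.19, and 1 was lower, Fasn at -1.14, with Hmgcs1 at -0.96. Over all 8 genes, including those that did not enter, the number lower by at least 1 ran from 1 to 5 on the other scales. Msmo1 turned to -0.69 without the cells over 75% Rn45s and to -0.43 when thinned. Scd2 and Fasn kept at least 1 in every alternative run. Those runs reuse the same cells, and Fasn was selected for its class difference. Hmgcs1 was -0.93 within title letters.

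Silent insensitive cells were compared with insensitive cells, and 5 of the 6 genes that entered were lower by at least 1. Msmo1 differed by -2.36, Scd2 by -2.01, Fdps by -1.72, Hmgcs1 by -1.41 and Fdft1 by -1.35, while Fasn differed by -0.13. Fdps entered through the insensitive cells alone. In the background of 5368 genes, 5.85% were higher by at least 1 and 36.7% lower, with a median of -0.69. Relative to that median 3 of the 6 were lower by at least 1: Msmo1 at -1.67, Scd2 at -1.32 and Fdps at -1.03. Fdft1 was -2.18 within letters and -0.60 without the cells over 75% Rn45s. This comparison shares its insensitive cells with the first and second comparisons and its silent insensitive cells with the fourth.

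Markers of other cell types moved with some of these classes. The summed level of 13 oligodendrocyte genes had a median of 1131 CPM (range 16.7 to 11806) in insensitive cells and of 2759 (11.3 to 79136) in warm-sensitive cells. It was 2516 (1732 to 22374) in the cold-sensitive class, 2459 (2.71 to 27512) in the silent sensitive class and 4379 (13.3 to 42033) in the silent insensitive class. For 12 microglia genes the medians were 959.6 (6.19 to 34520), 3633 (16.9 to 18842), 7571 (30.6 to 24995), 2162 (16.6 to 56859) and 3254.5 (12.9 to 34011) in the same order. For 10 astrocyte genes they were 385, 624, 138, 735 and 623. Over 96 cells, the rho of each of the 8 genes with the summed oligodendrocyte level lay between -0.20 and 0.13, and with the summed microglia level between -0.19 and 0.08. Their part in the results was not tested. The 4 endothelial and 3 oligodendrocyte precursor genes had a median of 0 in every class.

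The levels of the 8 genes were weakly related across cells. Over 96 cells, which differ in depth and library quality, the 28 pairs of the 8 genes had Spearman rhos from -0.05 to 0.28, with a median of 0.05. The pairs above 0.2 were Fdft1 with Sqle (0.28), which act in succession, Hmgcs1 with Fdft1 (0.25) and Fdps with Scd2 (0.22), and 7 pairs were below 0. Msmo1 lay between -0.03 and 0.06 with each of the other genes. Hmgcs1 and Fdft1 were both detected in 28 cells, Hmgcs1 alone in 19, Fdft1 alone in 15 and neither in 34.

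**Figure D4:**
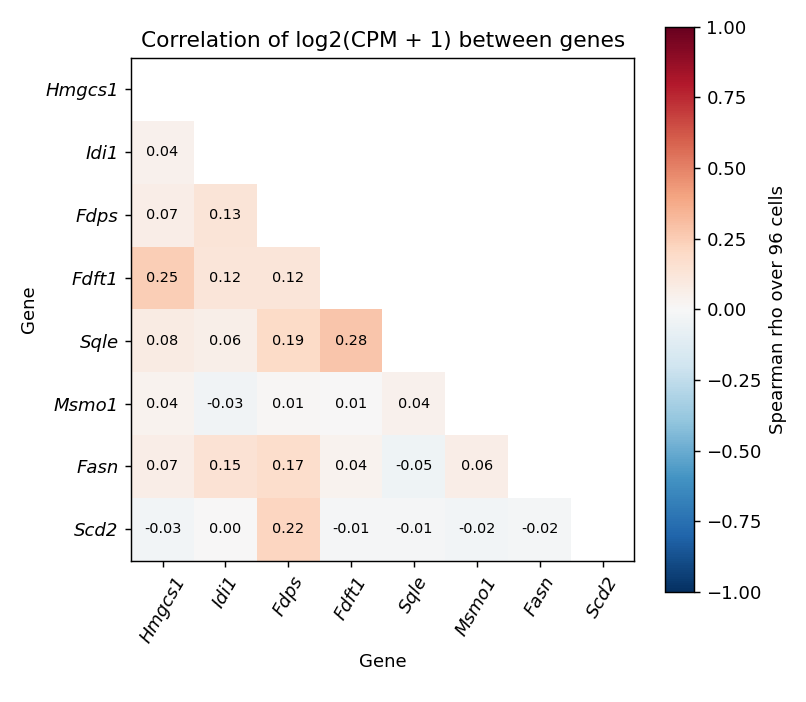
Spearman rho over 96 cells between the log2(CPM + 1) levels of each pair of the 8 genes, named on both axes, with the value printed in each square and a colour scale from -1 to 1. The highest value is 0.28, for Fdft1 and Sqle.

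The genes of the most similar pattern came from outside the 8. Among 3457 genes at 10 CPM in at least 25% of cells, the 3 of highest rho over 96 cells were taken for each. They were Magi1 (0.40), Wbp2 (0.39) and Vdac1 (0.37) for Hmgcs1, and Psmb2, Dtx3 and Irak1bp1 (each 0.32) for Idi1. Fdps was closest to Mapre3 (0.49), Bin1 and Gripap1 (each 0.45), and Fdft1 to Cnot4 (0.46), Chp1 and Mrps7 (each 0.43). For Sqle they were Scn3b (0.41), Unc80 (0.38) and Kctd13 (0.37), and for Msmo1 they were Limch1, Pnisr and Wdr83os (each 0.34). Fasn was closest to Eif5 (0.47), with Dbnl (0.38) also among its 3, and Scd2 to Ptdss2 (0.46), Lamp1 (0.33) and Ntrk2 (0.32). The best of 3457 genes is high by selection, and the median rho of all of them lay between -0.02 for Scd2 and 0.10 for Fdps.

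The other genes of sterol synthesis varied by gene and class. Of 16 such genes in the table, 7 entered the comparison of warm-sensitive with insensitive cells, with 0 higher and 3 lower by at least 1 and a median of -0.64. Of all genes 1.71% were higher and 61.6% lower there, with a median of -1.28, and 6 of the 7 lay above that median. Cyp51, which removes the first methyl group of lanosterol, differed by 0.50, Ggps1, which makes geranylgeranyl diphosphate, by -1.41 and Acat2, which joins acetyl units, by -1.22. In cold-sensitive cells 1 of 7 was higher and 2 lower (all genes 17.8% and 35.8%, median -0.45), with a median of 0.05: Acat2 at 1.44 and Pmvk, a mevalonate pathway kinase, at 0.66, and Ggps1 at -1.16. Warm-sensitive minus cold-sensitive cells gave 1.34 for Cyp51 and -1.29 for Pmvk, the 2 genes that entered (all genes 10.8% higher and 57.6% lower, median -1.35). In silent sensitive cells, set against silent insensitive ones, 2 of 5 were higher and 2 lower (all genes 13.6% and 38.8%, median -0.59), with a median of -0.16: Ggps1 at 1.90 and Sc5d, a desaturase of a late step, at 1.63, and Cyp51 at -1.18. Silent insensitive minus insensitive cells gave 0 higher and 2 lower of 7 (all genes 5.85% and 36.7%, median -0.69) and a median of -0.71, with Cyp51 at 0.30, Pmvk at -0.35 and Acat2 at -1.54.

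Fatty acid genes other than Fasn and Scd2 numbered 22. In warm-sensitive minus insensitive cells 1 of the 10 that entered was higher and 3 lower, with a median of -0.65, and 9 of the 10 lay above the median of all genes, of which 1.71% were higher and 61.6% lower. Scd1, a desaturase like Scd2, was higher by 1.43, at 10 CPM in 6 of 21 warm-sensitive and 3 of 24 insensitive cells. Slc25a1, which exports citrate from mitochondria for fatty acid synthesis, differed by -3.32, at 10 CPM in 5 of 21 and 16 of 24 cells. Acly, which splits that citrate into acetyl-CoA, differed by -1.20 and Tecr, a reductase of chain elongation, by 0.05. Relative to the median gene, Slc25a1 differed by -2.05 and Acly by 0.08. In cold-sensitive minus insensitive cells 0 of 9 were higher and 1 lower (all genes 17.8% and 35.8%), with a median of -0.44: Fads1, a desaturase, at 0.23, Acly at 0.07, Elovl4, an elongase, at -0.89 and Slc25a1 at -1.23. Warm-sensitive minus cold-sensitive cells gave 1 higher and 2 lower of 6 (all genes 10.8% and 57.6%) and a median of 0.13, with Scd1 at 1.10, Tecr at 0.30, Fads1 at -1.25 and Slc25a1 at -2.09. In silent sensitive minus silent insensitive cells 2 of 8 were higher and 3 lower (all genes 13.6% and 38.8%), with a median of -0.50. These were led by Elovl4 at 1.34 and Hsd17b12, another elongation reductase, at 1.25, and by Acly at -2.01 and Elovl5 at -2.62. Silent insensitive minus insensitive cells gave 0 higher and 3 lower of 10 (all genes 5.85% and 36.7%) and a median of -0.76, with Me1, the malic enzyme, at 0.65, Tecr at 0.63, Fads1 at -2.01 and Slc25a1 at -2.22.

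Of 13 regulators of the pathways, 4 entered for warm-sensitive against insensitive cells, with 0 higher and 1 lower (all genes 1.71% and 61.6%) and a median of -0.41, and 3 of the 4 lay above the median of all genes. Srebf2, the transcription factor of sterol synthesis, differed by 0.19, Insig1 and Insig2, which hold it back in the endoplasmic reticulum, by -0.28 and -1.35, and Nr1h2, an oxysterol receptor, by -0.54. In cold-sensitive minus insensitive cells 0 were higher and 1 of 4 lower (all genes 17.8% and 35.8%), with a median of -0.57 and values of 0.52, -0.19, -1.81 and -0.94 for Srebf2, Insig1, Insig2 and Nr1h2. Srebf2 alone entered for warm-sensitive minus cold-sensitive cells, at -0.33. In silent sensitive minus silent insensitive cells 1 of 5 was higher and 3 lower (all genes 13.6% and 38.8%), with a median of -1.43: Scap, the escort of SREBF proteins, at 1.87, Insig2 at 0.90, Nr1h2 at -1.46 and Insig1 at -1.56. Silent insensitive minus insensitive cells gave 0 higher and 0 lower of 4 (all genes 5.85% and 36.7%) and a median of 0.41, with Srebf2 at 0.86, Insig1 at 0.83, Nr1h2 at -0.004 and Insig2 at -0.65.

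Of 14 genes of sterol uptake, storage and export, 8 entered for warm-sensitive against insensitive cells, with 0 higher and 3 lower (all genes 1.71% and 61.6%) and a median of -0.39, and 6 of the 8 lay above the median of all genes. Apoe, the main lipoprotein of the brain, differed by 0.86 and Lrp8, one of its receptors, by 0.79, and Lrp1, another, by -1.41 and Soat1, which esterifies cholesterol, by -1.57. In cold-sensitive minus insensitive cells 1 of 7 was higher and 4 lower (all genes 17.8% and 35.8%), with a median of -1.75: Apoe at 2.00, Cyp46a1, which hydroxylates cholesterol for export from neurons, at 0.04, Vldlr, a lipoprotein receptor, at -2.38 and Abcg1, a sterol exporter, at -2.50. Apoe is made mainly by astrocytes and microglia, and the microglia and astrocyte levels of these classes are given above. Warm-sensitive minus cold-sensitive cells gave 2 higher and 1 lower of 6 (all genes 10.8% and 57.6%) and a median of 0.18, with Vldlr at 1.80, Lrp8 at 1.28, Cyp46a1 at -0.16 and Apoe at -1.14. In silent sensitive minus silent insensitive cells 1 of 7 was higher and 1 lower (all genes 13.6% and 38.8%), with a median of -0.33: Abca1, an exporter, at 1.65, Vldlr at 0.67, Abcg1 at -0.93 and Cyp46a1 at -1.45. Silent insensitive minus insensitive cells gave 0 higher and 2 lower of 7 (all genes 5.85% and 36.7%) and a median of -0.79, with Apoe at 0.42, Cyp46a1 at 0.18, Vldlr at -1.07 and Soat1 at -1.19.

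The 18 cells of unknown class entered no comparison. Their lowest value was 0 for all 8 genes, and their medians were 144 CPM for Scd2, 70.3 for Fdft1, 8.24 for Hmgcs1, 6.05 for Fasn, 1.61 for Msmo1, 0.183 for Sqle, and 0 for Fdps and Idi1. Scd2 passed 10 CPM in 13 of them, Fdft1 in 10, Hmgcs1 in 9, Fasn and Sqle in 7 each, Fdps in 5, Msmo1 in 4 and Idi1 in 2.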

How the data were processed

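RNA of 96 single neurons was sequenced after patch-clamp recording. Read counts were deposited by the authors as whole numbers for each gene in each cell, and a second deposited table holds normalized signal values. FastQC, STAR, edgeR and mm10 appear in the submitters' processing notes with no version. Annotation, counting and strand use: not given in the sources used here. Of 24054 genes, 7772 had no count, and no cells held identical values.

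Counts were scaled to 1000000 counts outside Rn45s, because Rn45s takes 53.2% of counts and a share that differs between classes; totals with Rn45s are an alternative. A gene was detected at 10 CPM. Differences are of mean log2(CPM + 1) between classes, called at 1 in size. Shares have exact Clopper-Pearson and summed counts exact Poisson 95% intervals; reads are not independent molecules. As no label names an animal, no test was run.

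The 8 genes and all lists were chosen with earlier results of these data known. Named in each comparison were the 8 genes and, per list, the 2 genes of highest and 2 of lowest difference, and per gene the 3 genes of highest Spearman rho; results of some genes that this rule names are not reported here. Hacd1, Hacd2 and Hacd3 did not match the table and were not used here. Sums without 1 cell leave out the highest cell.

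Alternatives were TMM and DESeq2 size factors, the deposited normalized signal values, totals with Rn45s, pseudocounts of 0.1 and 10, thinning to 200000 counts, summed counts, differences within title letters, centring on the median gene, leaving out cells with over 75% Rn45s, and leaving out each cell. Shares without the cells over 75% Rn45s, called genes counted on each scale, and the share of all genes with each class first, were added after seeing the data. The shares of all genes that were higher or lower by at least 1 were counted on the main scale only. Scripts were checked on simulated data. Software was edgeR 4.0.16 and DESeq2 1.42.0 in R 4.3.3, and scipy 1.17.1, matplotlib 3.10.9, pandas 2.3.3 and numpy 2.4.6 in Python 3.11.15.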

Additional observations from a re-analysis of the deposited data

Results flagged for a closer look

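The 8 genes were checked in the 5 cold-sensitive and the 10 silent sensitive cells, which gave 16 groups. The groups of Idi1 are among the 16 but could not be flagged, since Idi1 was at 0 in all their cells. In 4 of the 16 groups 1 cell stood far above the rest on the log2(CPM + 1) scale. The rule has a nominal rate of about 1 group in 20, which was not checked for values with many zeros. These were Fdps in cold-sensitive cell 5 at 181 CPM and in silent sensitive cell 9 at 301 CPM, Sqle in silent sensitive cell 3 at 229 CPM, and Fasn in silent sensitive cell 4 at 14.2 CPM. The Fasn value is low, and the next cell of that class, cell 10, stood at 2.79 CPM.

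Among the cells of unknown class, which entered no comparison, 5 genes exceeded the highest insensitive cell. Idi1 reached 19.5 CPM in cell 9 against 4.59, Fdft1 reached 709.8 in cell 10 against 606, Sqle reached 516 in cell 8 against 505, Fasn reached 491 in cell 2 against 478, and Scd2 reached 4594 in cell 9 against 1069.5. Labelled cells of other classes were higher for 4 of these genes, at 41.5 CPM for Idi1, 1418.5 for Fdft1, 1539 for Sqle and 1443.5 for Fasn, and only Scd2 exceeded every labelled cell, the highest of which had 2855. These differences were not tested.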

How the results depend on the processing

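Of 40 differences of the 8 genes (8 in each of 5 comparisons), 20 were at least 1 in size. In 8 of these 20 the size stayed at 1 or more with the same sign in every alternative run, and 12 fell under 1 in some alternative. All alternatives draw on the same cells by which Msmo1 and Fasn were selected, so they describe the processing only. Over 260 alternatives of the 20, 3 changed sign, all on summed counts: Fdft1 and Msmo1 in warm-sensitive minus insensitive cells, at 0.25 and 0.30, and Fdft1 in warm-sensitive minus cold-sensitive cells, at 0.22. The median difference of the 8 genes in warm-sensitive minus cold-sensitive cells was 0.34 and was 1.69 relative to the median gene, since the centring adds the 1.35 by which the median gene was lower. With each of the 5 cold-sensitive cells left out in turn it ran from 0.02 to 1.09, and for cold-sensitive minus insensitive cells from -0.87 to 0.17 around -0.13. No paired analysis was possible because the labels give no replicate numbers that pair cells and no test was made. Depth limits the low genes most: at the median warm-sensitive depth of 314892 counts outside Rn45s, a few counts decide whether a cell passes 10 CPM. Over all 8 genes in warm-sensitive minus insensitive cells, the number called lower by at least 1 ran from 0 to 4 on the other scales. The number called higher ran from 1 to 4. Both the 4 higher and the 0 lower come from centring on the median gene, which differed by -1.28. Idi1 at 1.59 and Sqle at 1.54, which did not enter, are among those 4. The share of all genes called was not counted on these scales.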
